A study of Oryza sativa with 12 samples.

Results

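The heat response of rice panicles was compared between the heat tolerant line 252 and the heat sensitive line 082. The quantity described is the interaction, the change from optimal to high temperature in 252 minus the same change in 082, on log2 of the array signal with 16 added. Of 33610 probe sets bright enough to test, 7828 were called, which means an adjusted p under 0.05 and an interaction of at least 1 in size. Every called probe set was then sorted by the temperature at which the lines differed, since the interaction also equals the difference between lines (252 minus 082) at high temperature minus that at optimal temperature. Of the 7828, 6298 arose at optimal temperature and 219 at high temperature.

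All 12 arrays entered the comparison, in 4 groups of 3 described in the labels as biological replicates. The groups were line 252 at high temperature, line 252 at optimal temperature, line 082 at high temperature and line 082 at optimal temperature. Heated plants stood at 37 °C in daytime and 30 °C at night over 5 days (high temperature), and the others at 30 °C in daytime and 25 °C at night (optimal temperature). Total RNA of whole panicles, the branched flower heads that carry the spikelets, was labelled and measured on Affymetrix rice arrays of 1 colour. No other strain, transgene or agent is given for any group. The stage of the panicles, the hour of sampling, the plants behind each replicate and the labelling run are not given in the sources used here. P-values measure only the spread between these samples. In such tissue a difference in the number of cells of a type and a difference in RNA per cell cannot be told apart.

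Plants meet heat with heat stress factors, transcription factors of the HSF family that bind the promoters of chaperone genes. Their best known targets are the small heat shock proteins, which keep unfolding proteins from clumping, and the ClpB and HSP90 machines that refold them. In cereals several small heat shock proteins, dehydrins and late embryogenesis abundant (LEA) proteins also accumulate without heat in ripening seeds, where starch and storage proteins are laid down in the endosperm. A gene can therefore show unlike heat responses in a pair of lines either because the heated panicles differ or because the unheated panicles differ.

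Array controls and tissue markers differed between groups. The median signal of an array was 55.2 to 68.4 at optimal temperature and 36.5 to 41.9 at high temperature. The bacterial Dap control, added to follow labelling, had a 3′/5′ ratio of 1.62 ± 0.0364 (SD, n = 3) and 1.86 ± 0.118 in 252 and 082 at optimal temperature, and of 12.9 ± 0.486 and 12.1 ± 0.846 at high temperature. This ratio parted the temperatures widely. In the Dap ratio the lines overlapped after heat, and at optimal temperature the 3 arrays of 252 (1.58 to 1.65) lay under those of 082 (1.74 to 1.98). The 18S rRNA control was at 1164 ± 189 in 252 optimal and 22254 ± 3562 in 082 optimal arrays, beside 10855 ± 522 and 9128 ± 1930 in the heated 252 and 082 arrays. The actin 3′/5′ ratio also set 082 optimal apart, at 5.54 ± 1.38 against 31.0 ± 4.20, 26.0 ± 3.95 and 29.6 ± 6.13 in 252 optimal, 252 high and 082 high. Heated 252 and 082 arrays did not overlap in the Phe control's 3′/5′ ratio (3.475 to 3.585 and 3.987 to 4.982). Nor did they in the 25S (4001 to 4468 and 6403 to 7581) and 28S rRNA controls (6508 to 8553 and 9539 to 11032). They did overlap in the 18S control and in the Thr, Lys, Gapdh, actin and Cyph ratios. The part of these differences in the interaction was not tested. Of the 15 measured floral organ genes that define the labelled tissue, 14 of the MADS family and DL, none lay under the array median in all 3 arrays of a group. Their summed signal moved with the groups, at 50054 to 73103 in the 252 optimal arrays, 35005 to 50815 in 082 optimal, 81307 to 99024 in 252 high and 76373 to 83714 in 082 high. Of the 15, 4 were called with negative interactions and 0 with positive ones, near the 25.2% called of all genes. The part of the tissue's makeup in these calls was not tested.

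Endosperm markers split the groups. The summed signal of 9 endosperm genes was 147495 to 200280 in the 082 optimal arrays, 866 to 17549 in the 252 optimal arrays, 917 to 1204 in the 252 high arrays and 724 to 802 in the 082 high arrays. None of the 9 lay under the array median in all 082 optimal arrays, and 8 of them did so in 082 high. Among 252 optimal arrays the value of 17549 belonged to replicate 1, which had 208 probe sets at least 4-fold above both other arrays of its group. Replicate 3 of 252 high had 294 such probe sets. Embryo and seed maturation markers (4 genes) summed to 19974 to 35841 in the 082 optimal arrays and 183 to 302 in the 252 optimal arrays. In the heated arrays they summed to 1751 to 3641 in 252 and 3260 to 3499 in 082. Most of the heated sum was the dehydrin gene RAB21, with means of 2515 in 252 and 3207 in 082. Heated means in 252 and 082 were 11.73 and 11.99 for VP1, 55.87 and 83.01 for Emp1 and 64.63 and 63.11 for R1C-Prx. In 252 optimal arrays the means of VP1, Emp1 and R1C-Prx were 72.02, 87.61 and 50.57, and that of RAB21 was 12.74. Markers of dividing cells (4 genes) summed to 8277 to 11359 in 252 optimal and 5000 to 9108 in 082 optimal arrays, and to 31.2 to 333 and 44.3 to 226 after heat. Meiocyte markers (6 genes) summed to 4425 to 5290 and 2522 to 3926 at optimal temperature and to 459 to 1505 and 490 to 556 after heat. Green tissue markers (3 genes) summed to 40973 to 48619 in 252 optimal and 39467 to 47974 in 082 optimal arrays. After heat they were higher, at 62310 to 71399 in 252 and 53157 to 70740 in 082. The part of these cell types in the calls below was not tested. Leaving out replicate 1 of 252 optimal gave 7939 calls, of which 6497 arose at optimal and 201 at high temperature. Leaving out replicate 3 of 252 high gave 7578, 6223 and 162.

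The called probe sets were 23.3% of those tested. The heat change was higher in 252 than in 082 (a positive interaction) for 3700 probe sets, or 11.0%, and lower (negative) for 4128, or 12.3%. When the arrays were scaled to the hybridization spikes this split was 2507 and 5773, and when they were centred on their 75th percentile it was 4271 and 3521, so the balance of directions depends on the scaling. The size of a called interaction had a median of 1.79 on the log2 scale, with quartiles of 1.35 and 2.54 and a highest value of 12.18. Over all tested probe sets the median interaction was −0.08.

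Most of the difference between the heat responses lay in the unheated panicles. Of the 7828 called probe sets, 80.45% differed between lines at optimal temperature and were not called at high temperature. The reverse, a line difference called at high temperature alone, held for 219, or 2.8%. A further 42 differed at both temperatures in opposite directions, 67 differed at both in 1 direction by unequal amounts, and 1202 (15.36%) were called at neither temperature by itself. When each called probe set was instead given to the temperature with the larger line difference, with no call needed, 7176 (91.67%) went to optimal and 652 (8.33%) to high temperature. These 3 contrasts share arrays, so the sort is a description and carries no test of its own. The background has the same lean: the lines differed at optimal temperature for 27.4% and at high temperature for 1.76% of all tested probe sets. Among the called probe sets the median size of the line difference was 1.57 at optimal and 0.27 at high temperature, beside 0.61 and 0.22 over all tested probe sets.

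**Figure D1:**
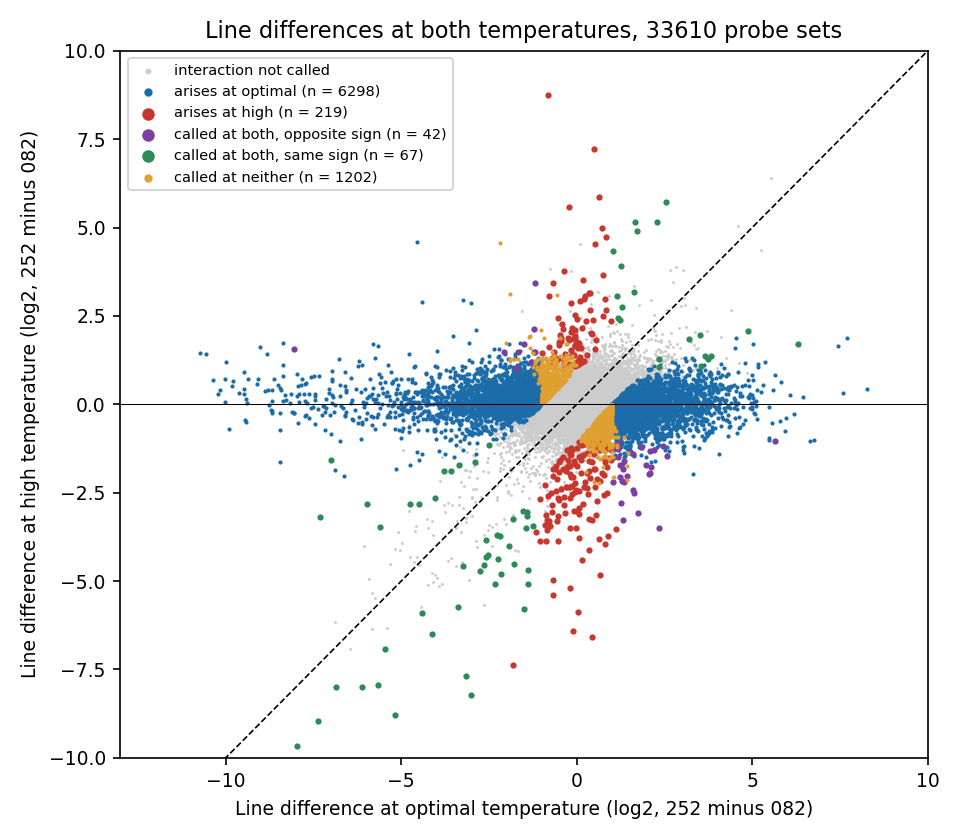
Line difference (252 minus 082, log2 of signal plus 16) at optimal temperature on the horizontal axis and at high temperature on the vertical axis, 1 point per probe set, with called interactions coloured by sort class. The 6298 probe sets that arise at optimal temperature spread along the horizontal axis, and the 219 that arise at high temperature spread along the vertical one.

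Called heat changes were more numerous in 082. Among the 7828 probe sets, heat changed the signal in 082 alone for 3490 and in 252 alone for 2051. With spike scaling these counts were 3058 and 2657. Both lines changed in 1 direction by unequal amounts for 877, both changed in opposite directions for 352, and neither change was called for 1058. Over all tested probe sets heat called 28.8% in 252 (9.42% rising, 19.4% falling) and 36.1% in 082 (14.2% rising, 21.9% falling).

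**Figure D2:**
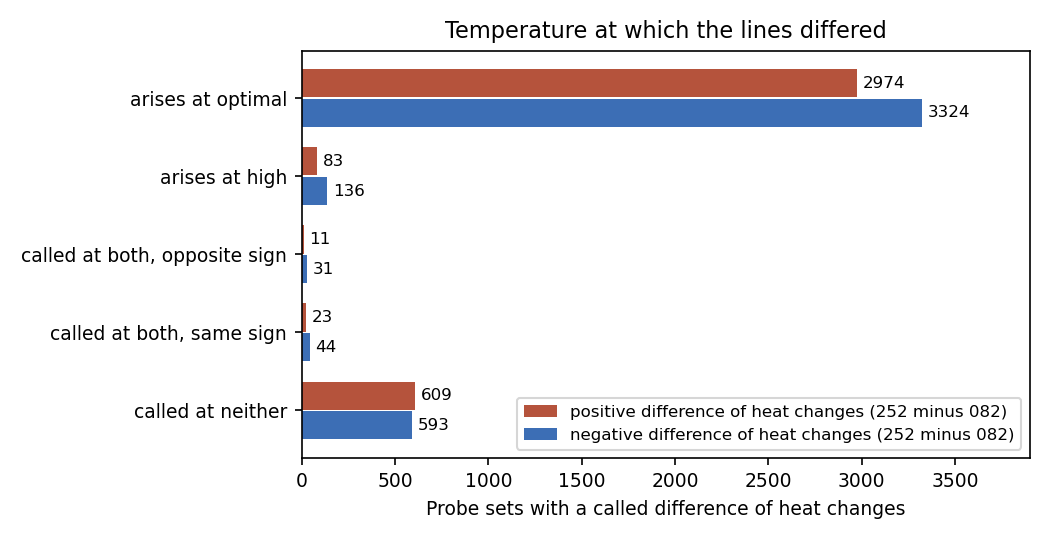
Number of called interaction probe sets in each sort class, split by direction. The bars for optimal temperature hold 2974 positive and 3324 negative probe sets, against 83 and 136 for high temperature.

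Within the 6298 probe sets that arose at optimal temperature, 4 shapes covered most. The largest, 1703 probe sets (27.0%), was high in 082 optimal panicles alone: heat lowered it in 082 and was not called in 252. Its median signals were 864 in 082 optimal, 123 in 252 optimal, 110 in 252 high and 86.2 in 082 high. The mirror shape, 1292 probe sets (20.5%), was high in 252 optimal alone, with a median of 589 there and of 107 to 108 in the other 3 groups. Low in 082 optimal alone were 1054 (16.7%), with a median of 297 there against 945 to 1049 elsewhere. Low in 252 optimal alone were 476 (7.6%), with 395 there against 1388 to 1462 elsewhere. Heat moved the lines in opposite directions for 129 probe sets that rose in 252 and fell in 082, and for 198 that fell in 252 and rose in 082. In each of the 6 shapes the heated groups had closer medians than the optimal groups, as the sort itself requires.

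Counted by gene, with each gene read from its brightest probe set, 4165 of 16537 genes were called (25.2%), 1603 positive (9.69%) and 2562 negative (15.5%), and their median interaction over all 16537 was −0.19. The sort was alike, with 3368 genes at optimal and 97 at high temperature. Genes are given below by role, with the signal of every array in replicate order. Where a signal lay under the array median, the size of the interaction depends on the 16 that was added, so values with 1 and 64 added are given for the largest. A call is said to be lost under a setting where 1 of the alternatives listed with the processing, other than a higher fold minimum, ended it.

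Seed storage protein genes had the highest median of the 26 gene lists. Of 9 measured genes 8 were positive, 0 negative and 1 not called, beside 9.69% positive and 15.5% negative of all genes, with a median of 9.63. Glutelins, the main storage proteins of rice endosperm, led the list, each gene read from its brightest probe set. GLUA-1 (LOC4327027) had signals of 31875, 43372 and 40020.0 in 082 optimal, 22.1, 1.42 and 21.2 in 252 optimal, 75.4, 15.8 and 1.35 in 252 high and 7.89, 0.981 and 13.2 in 082 high arrays. All 082 optimal arrays stood far above every other array, and the other 3 groups overlapped at low signals. Its interaction was 11.05 ± 0.71 (SE; adjusted p = 7.8e-07), or 12.99 with 1 added and 9.27 with 64 added. GLUD-1 (LOC4328877) was at 20552, 23813 and 24271 in 082 optimal and between 0.656 and 28.3 in all other arrays, an interaction of 10.74 ± 0.39 (SE; adjusted p = 1.2e-08). The same shape held for GLUA-3 (9.91), for the prolamin gene PROLM25 (8.56) and for the seed allergen genes RA17 (9.79, or 6.08 as the mean of its probe sets), RA14 (9.01) and RA5 (8.91). GLUA-2 was the member not called, at −0.44, and its signal was 227 to 770.5 over all arrays. Glutelin and allergen genes have closely similar copies, so a value for 1 member is uncertain.

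GLUB-5 (LOC4328968), another glutelin gene, was the member whose lines differed at both temperatures in opposite directions. Its signals were 26362, 30109 and 30653 in 082 optimal and 79.6, 90.5 and 112 in 252 optimal arrays, and 156, 66 and 65.5 in 252 high and 10.6, 21.2 and 27.7 in 082 high arrays. All 252 high arrays lay above all 082 high arrays, although the signals there were low. The line difference was −8.05 ± 0.29 (SE) at optimal and 1.58 ± 0.29 at high temperature, and the interaction was 9.63 ± 0.41 (SE; adjusted p = 3.7e-08).

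Starch synthesis genes followed the same direction, with 8 of 12 positive and 0 negative, beside 9.69% and 15.5% of all genes, and a median of 1.79. All 8 arose at optimal temperature. The branching enzyme gene Sbe1 (LOC4342117), which adds the branches of amylopectin, was at 22159, 27200.2 and 26508 in 082 optimal and at 4968, 4237 and 3994 in 252 optimal arrays. In heated arrays it was at 4846, 5008 and 4249 in 252 and 4473, 4563 and 4101 in 082, so 3 groups overlapped and 082 optimal stood alone. Its interaction was 2.62 ± 0.18 (SE; adjusted p = 1e-06). Other probe sets of Sbe1 were called at 3.55, 3.48, 3.11, 2.11 and 2.11, and a further one had 0.46 and was not called. GBSS-I (LOC4340018), the enzyme of amylose synthesis, was at 30191, 36099.7 and 35516 in 082 optimal and at 11646, 216 and 76.6 in 252 optimal arrays. The spread within 252 optimal came from replicate 1, and the interaction of 7.05 ± 1.81 (SE; adjusted p = 0.011) became 9.15 (adjusted p = 6.2e-06) without that array. SSII-3 (LOC4340567), a soluble starch synthase, had 4885, 92.2 and 73.9 in 252 optimal and 7422, 12285 and 11871 in 082 optimal arrays. Its interaction was 5.15 ± 1.60 (SE; adjusted p = 0.028), and 7.03 (adjusted p = 1.6e-05) without replicate 1, whereas leaving out any of 7 other single arrays ended the call (highest adjusted p = 0.072). Its other probe set had 0.17 and was not called, and the mean over both gave 2.66. The sucrose synthase gene SUS3 (LOC4343910), which feeds sucrose into starch, fell with heat in both lines, with a change of −9.96 in 082, and its interaction was 4.97 (adjusted p = 0.0043).

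Small heat shock protein genes also differed between lines mainly at optimal temperature. Of 18 measured genes 11 were positive, 1 negative and 6 not called, against 9.69% and 15.5% of all genes, and the median was 2.16. Of the 12 called, 11 arose at optimal temperature and 1 at neither. The median line difference over the 18 was −2.04 at optimal and 0.07 at high temperature, and the median heat change was 0.97 in 252 and −0.87 in 082. The cytosolic class I gene HSP16.9A (LOC4325697) had 759, 452 and 476 in 252 optimal and 6286, 9460.0 and 10651 in 082 optimal arrays. At high temperature it had 1287, 1819 and 2839 in 252 and 1468, 928 and 972 in 082, so heat raised it in 252 by 1.75 ± 0.30 and lowered it in 082, with a change of −2.95 ± 0.30. The optimal groups did not overlap, the heated groups did, and the interaction was 4.70 ± 0.43 (SE; adjusted p = 1.5e-05).

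HSP16.9B (LOC4325698), its neighbour in the family, had 212, 125 and 105 in 252 optimal and 1074, 1461 and 1789 in 082 optimal arrays, and an interaction of 4.24 ± 0.56 (SE; adjusted p = 0.00019). The plastid gene HSP26.7 (LOC4332237) was at 30, 27.4 and 37.6 in 252 optimal and 1353, 1052 and 1857 in 082 optimal arrays. Its heated signals were 96.6, 81.3 and 95.1 in 252 and 193, 54.3 and 36.6 in 082, which overlap. The interaction was 5.10 ± 0.59 (SE; adjusted p = 8.1e-05), or 5.73 with 1 added and 4.01 with 64 added. HSP24.1 (LOC4330786), a mitochondrial member, was at 1366, 267 and 263 in 252 optimal and 7594, 8795 and 9948 in 082 optimal arrays, an interaction of 4.73 ± 0.68 (SE; adjusted p = 0.00034). Of the members beyond the rule for naming, given here after their values were seen, HSP18.6, HSP16.0, HSP18.1, HSP17.4, HSP17.9A, HSP26.2 and HSP17.7 were positive at 1.21 to 3.70. HSP18.8 was the negative one (−1.53). The 6 not called ran from −0.18 (HSP17.8) to 1.06 (HSP23.2).

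Most genes of larger chaperones were not called, as was so of all genes, of which 25.2% were called. Of 6 HSP90 and ClpB genes 2 were positive and 4 not called, with a median of 0.90. CLPB1 (LOC4339343), the cytosolic disaggregase of the ClpB family, was at 394, 384 and 394 in 252 optimal and 1247, 2124 and 2192 in 082 optimal arrays. After heat it was at 451, 707 and 1102 in 252 and 666, 668 and 695 in 082, overlapping sets. The interaction was 2.22 ± 0.39 (SE; adjusted p = 0.0014); the mitochondrial CLPB-M (LOC4328515) had 1.98. Among 5 DnaJ co-chaperone genes, partners of HSP70, DJC27 was called (1.24; 0.94 and no longer called with spike scaling) and 4 were not. Of 13 endoplasmic reticulum chaperones and disulfide isomerases 2 were positive, 2 negative and 9 not called, with a median of 0.45. PDIL1-4 (LOC4327971), of the protein disulfide isomerase family, was at 13688, 20589.6 and 19715 in 082 optimal and 1895, 869 and 832 in 252 optimal arrays, with an interaction of 4.53 ± 0.39 (SE; adjusted p = 8.3e-06). PDIL2-3 was positive (1.89), PDIL1-2 (−2.04) and PDIL2-1 (−1.45) were negative, and all 4 arose at optimal temperature.

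The regulators of these chaperones were mixed. Of 12 class A heat stress factors, the activators, 1 was positive, 2 were negative and 9 were not called, near the 25.2% called of all genes. HSFA2A (LOC4334080) was the positive one, at 102, 47.1 and 92.4 in 252 optimal and 305, 331 and 724 in 082 optimal arrays, and at 44.8, 24 and 35.4 and 72, 16.1 and 14.3 after heat. Its interaction was 2.41 ± 0.64 (SE; adjusted p = 0.014), and it arose at optimal temperature. The negative ones were HSFA4D (−1.65) and HSFA3 (−1.01), of which HSFA3 lost its call under 13 alternative settings. HSFA2E (LOC4334418) had 1605, 1403 and 1297 in 252 optimal, 1504, 1153 and 1093 in 082 optimal, 2544, 2960.0 and 2845 in 252 high and 2831, 2460.0 and 2474 in 082 high arrays. Its heat change was 0.95 in 252 and 1.05 in 082, and the interaction was −0.10 ± 0.21 (SE; adjusted p = 0.75). HSFA2B had 0.98 (adjusted p = 0.11). HSFA2C and HSFA2D were at −1.50 (adjusted p = 0.052) and 0.22 (adjusted p = 0.49), but another probe set of each gave a called 2.63 and 2.25, and their gene records carry names of a second gene, so both are uncertain.

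Among class B and C factors, which lack the activating motif of class A, 4 of 8 were positive and 1 was negative, with a median of 1.09. Of all genes 9.69% were positive and 15.5% negative. HSFB2A (LOC4336701) was at 428, 432 and 331 in 252 optimal and 3060.0, 3493 and 4018 in 082 optimal arrays. Its heated signals of 936, 1167 and 1301 in 252 and 825, 1051 and 1266 in 082 overlapped. Heat raised it in 252 (1.48 ± 0.19) and lowered it in 082 (−1.75 ± 0.19), and the interaction was 3.22 ± 0.27 (SE; adjusted p = 7.3e-06). HSFB2B (3.23, or 1.34 as the mean of its probe sets) and HSFB2C (2.94) were positive too. HSFC1B (LOC4324158) went the other way, at 488, 715 and 756 in 252 optimal and 66.7, 65.6 and 81.7 in 082 optimal arrays, an interaction of −2.90 ± 0.50 (SE; adjusted p = 0.0011). All 5 called genes arose at optimal temperature.

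Dehydrins and LEA proteins, hydrophilic protectants of drying cells, held 5 positive genes of 8, 0 negative and a median of 3.67. Of all genes 9.69% were positive and 15.5% negative. The dehydrin gene RAB21 (LOC4350454), which responds to abscisic acid, was at 25.9, 3.43 and 8.88 in 252 optimal and 1634, 1329 and 2369 in 082 optimal arrays. After heat it was at 3506, 2420.0 and 1618 in 252 and 3132, 3181 and 3307 in 082. The shape was low in 252 optimal alone: heat raised it by 6.47 ± 0.32 in 252, the change in 082 was 0.89 ± 0.32 and was not called, and the interaction was 5.58 ± 0.45 (SE; adjusted p = 5.3e-06), or 6.93 with 1 added and 4.15 with 64 added. LEA19 (LOC4339480) was at 177, 166 and 157 in 252 optimal and 8768, 9104 and 11723 in 082 optimal arrays, and at 1917, 2446 and 2476 and 2071, 4744 and 4998 in heated 252 and 082. Heat raised it in 252 (3.64 ± 0.27) and lowered it in 082 (−1.41 ± 0.27). Emp1 (LOC4338499), an embryo LEA gene, had another shape, high in 082 optimal alone at 7111, 6526 and 13186 against 54.6 to 107 in all other arrays, and its interaction was 5.93 ± 0.37 (SE; adjusted p = 7.2e-07). The gene rab25 (LOC4326935) was at 1229, 2312 and 2601 in 082 optimal against 22.1 to 316 elsewhere (6.22).

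Antioxidant, aquaporin and germin-like genes held other large positive values. The counts here stand beside 25.2% of all genes called, 9.69% positive and 15.5% negative. R1C-Prx (LOC4344045), a 1-cysteine peroxiredoxin of embryo and aleurone, was at 10444, 14018 and 18473 in 082 optimal and 31.6 to 84.8 in the other 9 arrays, an interaction of 7.83 ± 0.42 (SE; adjusted p = 1.9e-07). The other 19 antioxidant enzyme genes held 1 positive gene, the superoxide dismutase gene SODCC.2 (1.37), and 1 negative, APX8 (−1.25), whose call was lost under 11 settings. Among 23 aquaporin genes 6 were positive, 3 negative and 14 not called. The seed vacuole channels TIP3-1 (LOC4348981) and TIP3-2 (LOC4336464) led the positive ones. TIP3-1 was at 17083, 31424 and 32109.5 in 082 optimal, 51.4, 37.1 and 52.9 in 252 optimal, 116, 201 and 114 in 252 high and 171, 243 and 96.7 in 082 high arrays. The heated groups overlapped, and the interaction was 8.50 ± 0.47 (SE; adjusted p = 2e-07); that of TIP3-2 was 4.85. The germin-like gene GER3 (LOC4344838), of a family of cell wall glycoproteins, was low in 252 optimal alone, at 180.5, 165 and 154 against 8756, 5610.0 and 8682 in 082 optimal. Its heated arrays were spread widely, from 3017 to 33809 in 252 and from 1532 to 20040 in 082. The interaction was 6.48 ± 1.21 (SE; adjusted p = 0.0018).

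**Figure D3:**
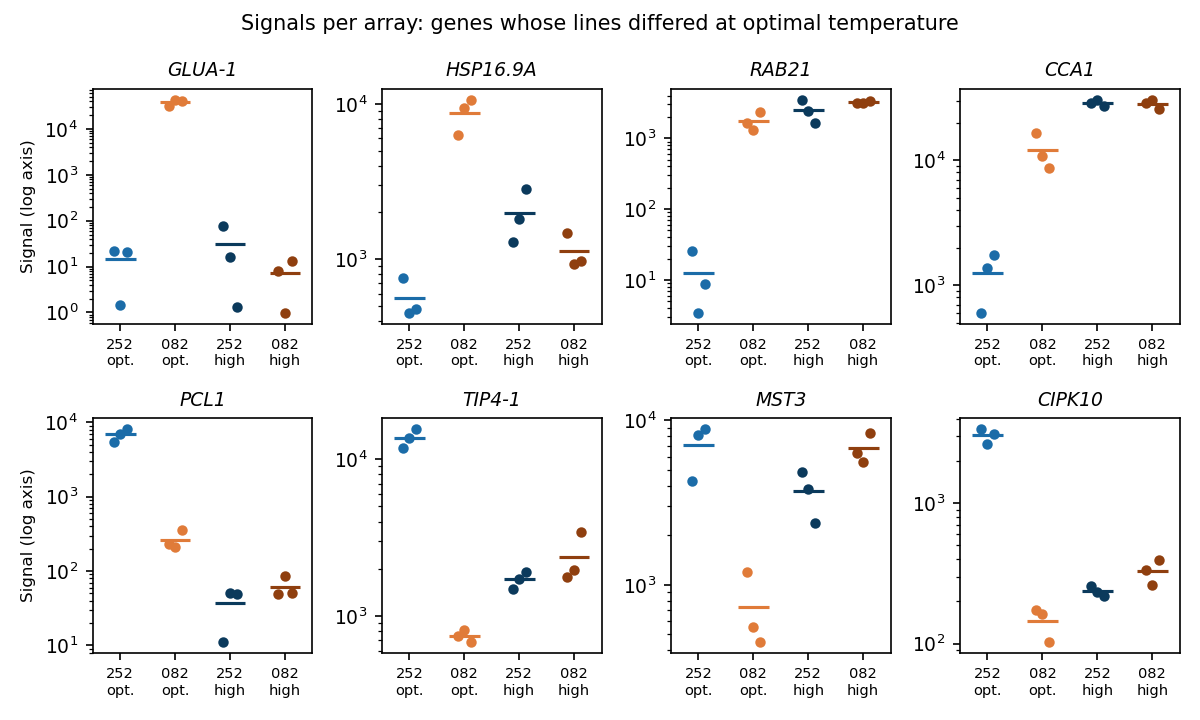
Signal of every array (log axis) for 8 named genes that arise at optimal temperature, in the 4 groups (252 and 082, optimal and high), with a bar at each group mean. In every panel the optimal groups of the lines lie apart and the heated groups lie closer together.

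Clock genes were called in full: of 7 measured genes 6 were negative, 1 positive and 0 not called, against 25.2% of all genes, with a median of −1.83. Plant clocks pair morning genes such as CCA1 with evening genes such as PCL1 and GI, which peak at opposite times of day. CCA1 (LOC4344703) was at 600.3, 1377 and 1758 in 252 optimal and 16456, 10869 and 8655 in 082 optimal arrays. After heat it was at 28552, 30535 and 27185 in 252 and 28759, 30437 and 25628 in 082, sets that overlap. Its interaction was 3.36 ± 0.45 (SE; adjusted p = 0.00022), or 1.61 as the mean of its probe sets. PCL1 (LOC4326391) mirrored it, at 5497, 7034 and 8158 in 252 optimal and 229, 211 and 354 in 082 optimal arrays, then 11.1, 50 and 49.1 in 252 high and 48.6, 85.5 and 51.1 in 082 high. Heat lowered PCL1 in both lines, with changes of −7.13 ± 0.35 in 252 and −1.85 ± 0.35 in 082, and the interaction was −5.28 ± 0.49 (SE; adjusted p = 1.6e-05). GI (LOC4325329), which links the clock to flowering, was at 9268, 9976 and 11586 in 252 optimal and 1348, 1364 and 1449 in 082 optimal arrays, an interaction of −3.07 ± 0.20 (SE; adjusted p = 7.4e-07). The pseudo-response regulator genes PRR1 (−1.99), PRR95 (−1.83), PRR37 (−1.70) and PRR73 (−1.03) were negative as well. Of these genes 6 arose at optimal temperature and PRR73 at neither. The hour of sampling of each group is not given, and its part was not tested.

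Sugar transport genes moved both ways, with 4 positive and 6 negative of 20, beside 9.69% and 15.5% of all genes. All 10 arose at optimal temperature. The monosaccharide transporter gene MST3 (LOC4342198) was at 4253, 8113 and 8877 in 252 optimal and 1203, 554 and 449 in 082 optimal arrays, and at 4875, 3844 and 2394 and 6313, 5587 and 8399 after heat. It was low in 082 optimal alone, where heat raised it by 3.28 ± 0.37, and its interaction was −4.20 ± 0.53 (SE; adjusted p = 0.00015). SWEET5 (LOC4339772), a sugar efflux carrier gene, was at 1717, 2108 and 2910.0 in 252 optimal and 279.8, 274 and 151 in 082 optimal arrays and fell with heat in both lines, with an interaction of −3.61 ± 0.52 (SE; adjusted p = 0.00034). SWEET15 (3.56) and SWEET2B (2.77) were positive. SWEET15, a carrier that unloads sucrose into the filling grain, was at 3520.0, 4580.0 and 4997 in 082 optimal and 372, 575 and 633 in 252 optimal arrays, and its call was lost when replicate 3 of 082 high (adjusted p = 0.065), replicate 1 of 252 optimal (3.33, adjusted p = 0.052), or replicate 2 or 3 of 082 optimal was left out. The list's 10 calls became 6 without replicate 3 of 082 high.

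The rule for naming also gave 5 genes with large negative values from varied families. CIPK10 (LOC4332786), a kinase that acts with calcium sensors, was at 3382, 2658 and 3133 in 252 optimal and 172, 162 and 102 in 082 optimal arrays. After heat it was at 258, 233 and 217 in 252 and 332, 259.7 and 396 in 082. Heat lowered it in 252 (−3.60 ± 0.21) and raised it in 082 (1.11 ± 0.21), so the interaction was −4.71 ± 0.30 (SE; adjusted p = 7.4e-07). The vacuolar aquaporin gene TIP4-1 (LOC4338163) was at 11856, 13554 and 15602 in 252 optimal and 751, 817 and 682 in 082 optimal arrays. It met at 1493, 1718 and 1922 in 252 high and 1772, 1959 and 3415 in 082 high arrays, again falling in 252 and rising in 082, with an interaction of −4.57 ± 0.30 (SE; adjusted p = 9.9e-07). Its other probe set had −1.14 (adjusted p = 0.15) and was not called, and the mean over both gave −2.86. GLT2 (LOC4339561), a glutamate synthase of nitrogen assimilation, had −4.55 ± 0.60 (SE; adjusted p = 0.0002), with 3444, 2779 and 4662 in 252 optimal and 291, 136 and 54.6 in 082 optimal arrays. HAK17 (LOC4347211), of the potassium transporter family, was high in 252 optimal alone, at 3829, 5055 and 4328 against 167 to 389 elsewhere (−4.11 (adjusted p = 2.6e-05)). DTS2 (LOC4335094), a diterpene synthase of phytoalexin production, was at 793, 506 and 1012 in 252 optimal and 97.3, 59.2 and 76.2 in 082 optimal arrays (−4.26 (adjusted p = 0.0026)).

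Jasmonate genes were the list with members in most sort classes. Jasmonate is a lipid hormone of wounding and flower opening, and JAZ proteins repress its response. Of 31 measured genes 9 were negative and 3 positive, beside 15.5% and 9.69% of all genes, with a median of −0.51. Of these 12, 8 arose at optimal temperature, 2 at high temperature, 1 differed at both in 1 direction and 1 was called at neither. The lipoxygenase genes CM-LOX1 (LOC4345993) and CM-LOX2 (LOC4345994) were high in 252 optimal. CM-LOX1 was at 204, 2115 and 2118 there and at 2.31 to 29.0 in the other 9 arrays, an interaction of −5.11 ± 1.02 (SE; adjusted p = 0.0028). CM-LOX2 was at 2191, 3056 and 3022 in 252 optimal and 383, 431 and 163 in 082 optimal arrays (−3.30), and its 2 other probe sets were not called. JAZ5 (LOC4335698) was low in 082 optimal alone, at 32.2, 12.9 and 6.56 against 187, 210.2 and 152 in 252 optimal (−3.52 (adjusted p = 0.00011)). JAZ2 (LOC4342421) was positive, at 56.3, 2.56 and 2.68 in 252 optimal and 433, 806 and 763 in 082 optimal arrays (2.92 (adjusted p = 0.013)).

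The JAZ genes that arose at high temperature were JAZ11 and JAZ12. JAZ11 (LOC4331833) was at 519, 432 and 409.5 in 252 optimal and 546, 387 and 325 in 082 optimal arrays, overlapping sets. After heat it was at 2397, 1846 and 1173 in 252 and 3846, 4471 and 6329 in 082, with no overlap. Heat raised it in both lines, by 1.90 ± 0.27 in 252 and 3.49 ± 0.27 in 082, and the interaction was −1.59 ± 0.38 (SE; adjusted p = 0.0075). JAZ12 (LOC4348533) was at 1045, 1036 and 990.2 in 252 optimal, 886, 958 and 897 in 082 optimal, 1789, 1469 and 1524 in 252 high and 2895, 3311 and 4723 in 082 high arrays. Its heat change was 0.63 in 252, under the size needed for a call, and 1.95 in 082, an interaction of −1.32 ± 0.23 (SE; adjusted p = 0.0013). JAZ8 (LOC4347164) differed at both temperatures in 1 direction, at 112, 83.1 and 106 in 252 optimal and 106, 84.9 and 101 in 252 high arrays against 1385, 835 and 1099 and 3042, 3113 and 2030.0 in 082. It stayed near 100 in every 252 array and rose with heat in 082, and the interaction was −1.33 ± 0.32 (SE; adjusted p = 0.0077). That call was lost under quantile normalization (−0.63, adjusted p = 0.14).

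Few genes differed between the lines after heat alone. The 97 genes of this class, 38 positive and 59 negative, included 14 with a name, JAZ11 and JAZ12 among them. Over all genes the lines differed for 28.7% at optimal and 1.46% at high temperature. Heat was called in 082 and not in 252 for 24 of the 38 positive and 36 of the 59 negative genes, beside 19.2% of all genes. The interaction itself favours such genes, so nothing is read from that share. BC1L9 (LOC4349011), a COBRA-like gene of cellulose assembly, was at 507, 750.4 and 1185 in 252 optimal and 930.5, 1662 and 1236 in 082 optimal arrays, sets that overlap. After heat it was at 670.4, 355 and 304 in 252 and 38.2, 14.8 and 24.1 in 082, with no overlap. Heat lowered it in 082 (−4.95 ± 0.36), the change in 252 was −0.85 ± 0.36 and was not called, and the interaction was 4.10 ± 0.51 (SE; adjusted p = 0.00014).

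HO2 (LOC4333033), of the haem oxygenase family, was at 1394, 1386 and 1648 in 252 high and 363, 315 and 372 in 082 high arrays. At optimal temperature it was at 1292, 998 and 852 in 252 and 691, 752 and 878 in 082. Heat lowered it in 082 (−1.11 ± 0.17), the heated groups did not overlap, and the interaction was 1.61 ± 0.24 (SE; adjusted p = 0.00048). RFC4 (LOC4336704), a subunit of the clamp loader of DNA replication, was at 839, 972 and 952 in 252 high and 261, 288 and 278 in 082 high arrays, from overlapping levels of 1431, 1388 and 1086 and 1097, 1334 and 1620.0 at optimal temperature. Its interaction was 1.73 ± 0.24 (SE; adjusted p = 0.00026). HMA5 (LOC4336625), a heavy-metal ATPase that moves copper, was at 130.4, 181 and 299 in 252 high and 39.6, 44.9 and 77.5 in 082 high arrays (2.39 (adjusted p = 0.0035)). RSS1 (LOC4329928), a cell cycle regulator of meristems under salt stress, fell in both lines, with changes of −2.90 in 252 and −3.98 in 082. Its interaction of 1.08 (adjusted p = 0.034) lost the call under 11 settings. AARE2 (LOC4348628), named for an acylamino acid-releasing enzyme, had 1.75 (adjusted p = 0.00097), while its other probe set had −0.56 and was not called, and the mean over both (0.60) lost the call.

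Higher in heated 082 than in heated 252 were 8 named genes, including those JAZ genes. MADS26 (LOC4344493), a MADS factor that acts in stress responses, was at 1694, 1365 and 854 in 082 high and 128, 148 and 132 in 252 high arrays. At optimal temperature it was at 85.2, 97.3 and 188 in 252 and 284, 142 and 79.9 in 082, overlapping sets. Heat raised it in 082 (2.94 ± 0.40), the change in 252 was 0.19 ± 0.40 and was not called, and the interaction was −2.74 ± 0.56 (SE; adjusted p = 0.0031). CSLE1 (LOC4347370), of the cellulose synthase-like family, fell instead in 252, to 114, 48 and 32.6 against 366, 477 and 309.8 in 082, and its interaction was −2.39 ± 0.68 (SE; adjusted p = 0.019). The same fall in 252 alone was seen for OrysaZxb (LOC4333434), at 66.8, 93.2 and 62.6 in 252 high and 309.6, 482 and 519 in 082 high arrays (−2.18 (adjusted p = 0.0084)). RTEL1 (LOC4326378), a helicase gene of genome stability, was at 146, 148 and 211 in 252 high and 472, 258 and 374 in 082 high arrays. Its interaction was −1.61 (adjusted p = 0.0036), or −2.54 as the mean of its probe sets. At optimal temperature it was at 638, 622 and 500 in 252 and 340, 358 and 471 in 082, the opposite order without overlap. That line difference was not called (0.58, adjusted p = 0.067). The line difference at high temperature passed narrowly (−1.04, adjusted p = 0.045), so its class is uncertain. XBOS36 was at −1.11 and lost its call under 8 settings. The thioredoxin gene OsTrx18 was at −1.20, but its 2 other probe sets had 0.70 and 0.35, so its direction is uncertain. Its call was lost with that mean and with quantile normalization.

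**Figure D4:**
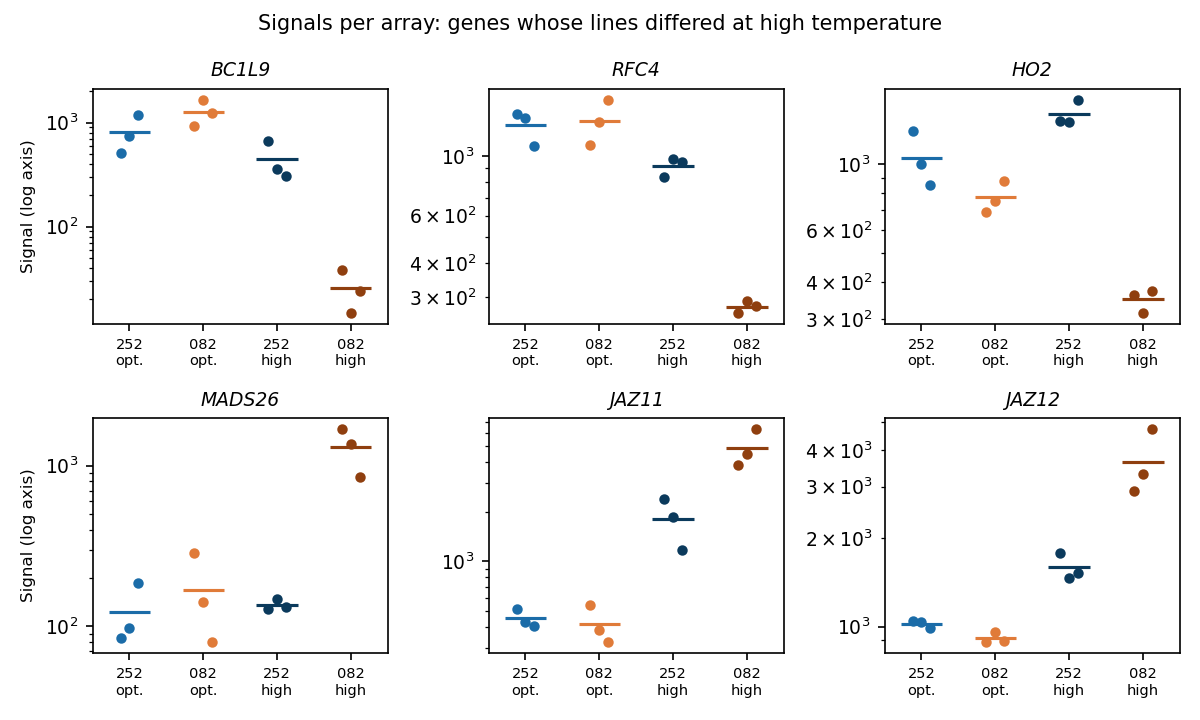
Signal of every array (log axis) for 6 named genes that arise at high temperature, in the 4 groups, with a bar at each group mean. The optimal groups of the lines lie close together, and the heated groups lie apart, with 252 higher for BC1L9, RFC4 and HO2 and 082 higher for MADS26, JAZ11 and JAZ12.

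Besides GLUB-5, 2 named genes differed at both temperatures in opposite directions. AMT3-2 (LOC4334717), an ammonium transporter gene, was at 1751, 2430.0 and 2479 in 252 optimal and 1160.0, 363 and 328 in 082 optimal arrays. After heat the order was turned, at 437, 238 and 219 in 252 and 992, 1113 and 1418 in 082. The line difference was 2.05 ± 0.40 (SE) at optimal and −1.97 ± 0.40 at high temperature, and the interaction was −4.02 ± 0.57 (SE; adjusted p = 0.00031). CH6 (LOC4342114) crossed in the same way, at 461, 437 and 491 and 217, 158 and 218 in optimal 252 and 082 and at 259, 155 and 125 and 359, 385 and 583 after heat (−2.43 (adjusted p = 0.00054)). In neither gene did the lines overlap at either temperature. Of the 42 probe sets with such a crossing, 31 were negative like these. That count rests on few arrays: it was 23 without replicate 2 and 26 without replicate 3 of 082 high.

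Cell division genes that were called had mostly negative interactions. Kinesins, the microtubule motors of spindle and phragmoplast, held 11 negative genes, 1 positive and 20 not called of 32, beside 15.5% negative over all genes, with a median of −0.79. Their median heat change was −2.33 in 252 and −1.44 in 082. The count of 11 was 16 with spike scaling, 8 with 75th percentile centring, 7 with 1 added to the signals and 6 without replicate 2 of 252 optimal. KIN14E (LOC4331382) was at 1078, 1544 and 1096 in 252 optimal and 264, 194 and 300.1 in 082 optimal arrays, and at 4.66, 1.85 and 10.7 and 25.1, 27.9 and 17.3 after heat, an interaction of −3.09 ± 0.37 (SE; adjusted p = 0.00011), or −4.36 with 1 added and −2.36 with 64 added. KIN7J (LOC4347645) was at 1082, 2042 and 1665 in 252 optimal and 127, 214 and 134 in 082 optimal arrays (−2.38). KIN14R (−2.48) and KIN12C (−2.09) were negative as well, and KIN12C lost its call under 5 settings, 1 added to the signals among them (adjusted p = 0.094). Histones, replication genes and mitotic cyclins held 4 negative and 1 positive of 33, where 25.2% of all genes were called, and 7 negative without replicate 3 of 082 optimal. Their median heat change was −2.73 in 252 and −1.77 in 082. The cyclin CYCB2-2 (LOC4342121) was at 3889, 3705 and 2701 in 252 optimal and 1044, 741 and 1094 in 082 optimal arrays and at 0.576 to 22.8 in all heated arrays, an interaction of −2.17 ± 0.43 (SE; adjusted p = 0.0026) that was lost with 1 added to the signals. Its other probe set had −0.60 and was not called. CYCA2-1 (−1.48), CYCB2-1 (−1.16) and CYCB1-1 (−1.07) were the other negative cyclins, of which CYCB1-1 lost its call under 6 settings (highest adjusted p = 0.14). In the meiosis list 1 of 11 genes was called, ZIP4 (LOC4344937), at −2.37 (adjusted p = 0.00012). Members were matched by symbol, and ZIP4 is also the symbol of a zinc transporter gene, so its place in this list is uncertain.

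Among wall-loosening genes, 4 of 26 expansin and pectin genes were negative and 2 positive, near the 25.2% called of all genes, with a median of −0.01. EXPB9 (LOC4349301), a beta-expansin, was at 5513, 7746 and 8412 in 252 optimal and 502, 956 and 182 in 082 optimal arrays and at 44.1 to 95.4 in all heated arrays, an interaction of −3.81 ± 0.64 (SE; adjusted p = 0.00096). EXPA32 (−3.40) and EXPB17 (−3.31, or −1.67 as the mean of its probe sets) were negative, and the pectin methylesterase inhibitor gene PMEI8 (3.32) was positive. Auxin genes had 10 negative and 4 positive of 55, near the 25.2% of all genes, with a median of −0.39. The negative count was 5 without replicate 2 of 252 optimal and 14 without replicate 1 of 082 optimal. The auxin response factor gene ARF7 (LOC4329672) was at 1500.0, 2053 and 1642 in 252 optimal and 511, 496 and 551 in 082 optimal arrays, an interaction of −1.91 ± 0.23 (SE; adjusted p = 0.00011). GH3-8 (LOC4343785), which conjugates auxin to amino acids, was high in 082 optimal alone, at 2681, 2010.0 and 3685 against 168 to 723 elsewhere (2.66 (adjusted p = 0.0029)). ARF12 was at −1.82 and IAA31 at −1.95, where the mean of its probe sets (−0.98) lost the call.

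Transcription factor families were mixed. Of 26 MADS genes 5 were negative, 2 positive and 19 not called, near the 25.2% called of all genes. Without replicate 3 of 252 high, 8 were negative and 3 positive. MADS27 (LOC4329771) was at 375, 819 and 671 in 082 optimal against 9.40 to 55.5 in the other 9 arrays (3.39 (adjusted p = 0.0008)). MADS22 (LOC4330805) was at 4492, 5427 and 6526 in 082 optimal and 2081, 336 and 362 in 252 optimal arrays (2.72, and 3.56 without replicate 1 of 252 optimal). MADS4 (LOC4338842), a petal and stamen identity gene, was at 1104, 1696 and 1357 in 252 optimal and 362, 449 and 397 in 082 optimal arrays (−2.07 (adjusted p = 0.0088)). Among 25 homeodomain-leucine zipper genes 5 were negative and 2 positive, near the 25.2% of all genes. That became 2 negative and 0 positive without replicate 1 of 252 high, and 2 negative without replicate 3 of 252 optimal or of 082 optimal. HOX1 (LOC4349388) was low in 082 optimal alone, at 551, 322 and 189.7 against 1623, 1918 and 1965 in 252 optimal (−3.14 (adjusted p = 0.00022)). HOX4 was at −1.93. HOX24 (1.97) and Hox22 (1.97) were positive, and lost the call under 10 and 5 settings, spike scaling among them. Of 6 WRKY genes, of which WRKY62 and WRKY76 repress defence, 3 were negative and 0 positive: WRKY62 (−2.62), WRKY24 (−2.54) and WRKY76 (−1.93, lost with 1 added to the signals).

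The remaining lists held 1 to 3 calls each. Of 24 cytosolic ribosomal protein genes 1 was called, RPL3A (1.20 (adjusted p = 0.004)), and their median was 0.44. With 75th percentile centring 5 were positive, without replicate 1 of 082 optimal 6, and with quantile or spike scaling none was called. Of 7 photosynthesis genes 1 was called, PSAH (−1.21 (adjusted p = 0.047)), and it was lost under 14 settings. In the tapetum list 1 of 4 measured genes was called, EAT1 (LOC4336865), a regulator of tapetal cell death, at 82.5, 259.5 and 215 in 082 optimal and 14.0 to 48.9 elsewhere (2.85 (adjusted p = 0.0018)). Other tapetum markers did not all lean that way. Their means in 252 and 082 optimal arrays were 72.8 and 23.5 for CYP703A3, 13.7 and 13.8 for TDR and 33.9 and 68.7 for PTC1. The germin-like list had 1 positive and 2 negative of 9, GER3 beside GER7 (−1.95) and GER6 (−1.81). GER7 lost its call under 2 settings and GER6 under 7. Over all 26 lists, 149 genes were called, each counted once, where 25.2% of all genes were called. The lists held 487 memberships, members that were not tested included.

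**Figure D5:**
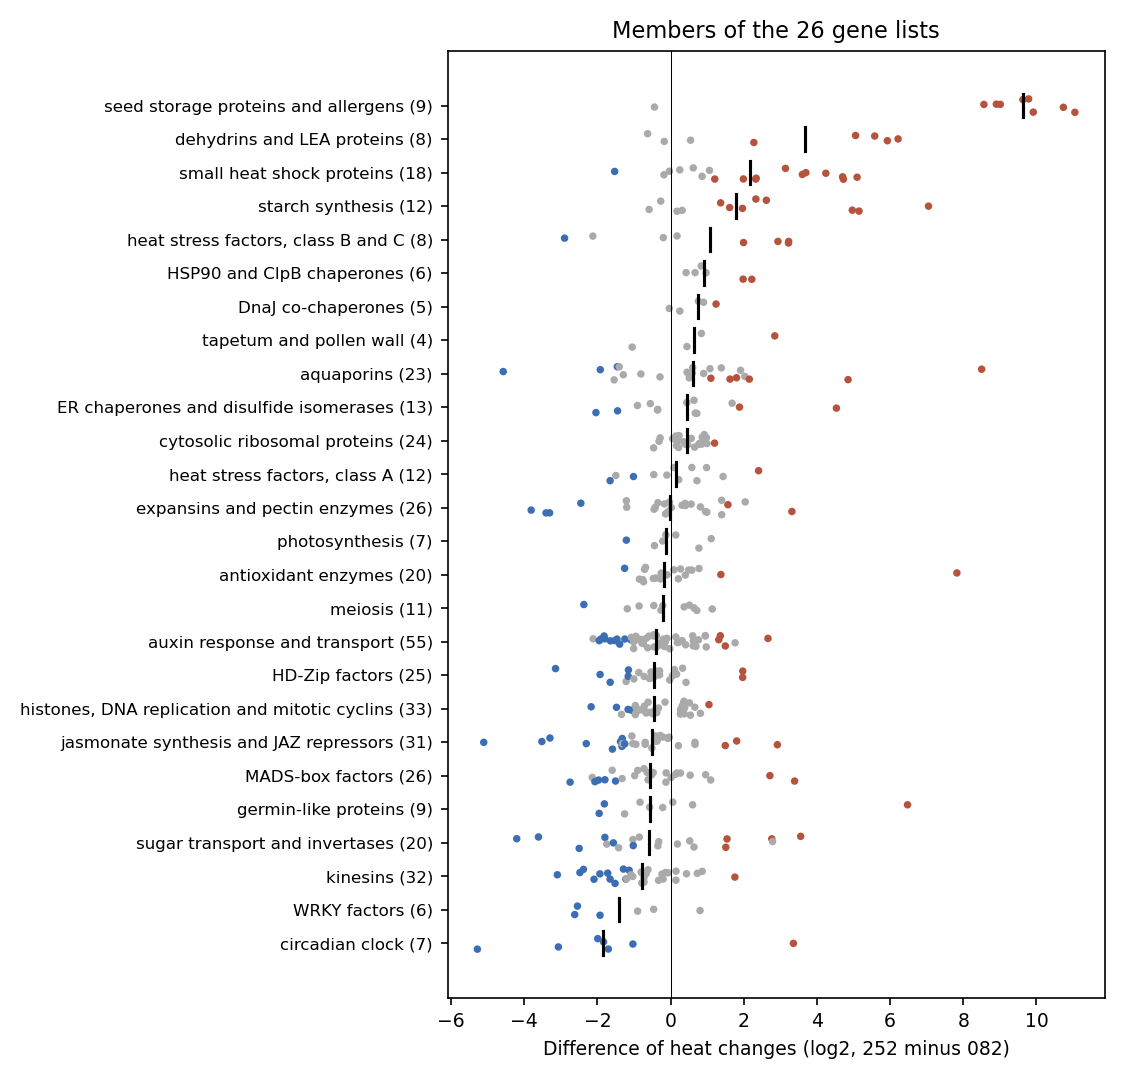
Interaction (log2) of every measured member of the 26 gene lists, 1 point per gene, with called genes coloured by direction, the others grey and the list median marked. Storage protein genes reach 11.05, and clock, kinesin and jasmonate genes lie mostly under 0.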

How the data were processed

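The values are the authors' deposited intensity signals of 12 arrays, 1 column per sample, on a linear scale. MAS5 is named in the submitters' processing notes, per the labels. Per the labels' protocols, biotin-labelled cRNA was made from 6 µg of total RNA. The MAS5 version, its target and the genome build are not given in the sources used here, so no coordinates are printed. The mean of every array after a 2% trim at each end was 500, so the arrays were taken as scaled to a common mean. Of 57381 probe sets, 187 Affymetrix controls were set aside.

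A probe set was kept where 3 or more of the 12 signals exceeded the array median (33610 kept), and log2 of the deposited signal plus 16 was fitted with 4 group means in limma 3.58.1 (R 4.3.3) with an intensity trend and 8 residual degrees of freedom. The Benjamini-Hochberg adjustment ran over all kept probe sets of a contrast. Calls required an adjusted p below 0.05 together with a log2 size of 1 or more. A called interaction arose at optimal (or high) temperature where the line difference was called there alone. Log2 values carry standard errors from the fit, and signals carry the SD of 3 arrays. The number of arrays limits the precision.

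Gene identifiers came from the array's annotation and names from a RefSeq gene table (assembly ASM3414082v1). 1 gene was given for 22436 probe sets and several for 95, which were left unnamed; 17905 genes had a probe set, and 2451 of them had a usable gene name, locus and clone numbers not counted. Of the 107 called named genes and 4 others that are named by rule, 25 had other tested probe sets, and 4 of those 40 went the other way. Named genes are those with the largest called interactions per sort class (up to 8 per direction, 5 where lines crossed, 4 with 1 direction at both), up to 4 called members per list, the HSFA2 genes and CLPB1; other list members were chosen after their values were seen. The sort, the gene lists and the naming rule were chosen with earlier results of these data known.

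Alternatives were quantile normalization, 75th percentile centring, spike scaling, 1 or 64 added, no filter or one at the 75th percentile, no trend, replicate block, array weights, other fold minimums, 1 probe set or the mean per gene, 2 other sorts, and leaving out each array. The fit was tested on simulated data. Sequences were not analysed here.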

Additional observations from a re-analysis of the deposited data

Results flagged for a closer look

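The test of the difference between the lines' heat changes itself singled out 7828 probe sets, and the named genes among them are given here with their interactions on the log2 scale and no explanation. The highest positive values among genes that arose at optimal temperature were GLUA-1 (11.05), GLUD-1 (10.74), GLUA-3 (9.91), RA17 (9.79), RA14 (9.01), RA5 (8.91), PROLM25 (8.56), TIP3-1 (8.50), R1C-Prx (7.83), GBSS-I (7.05), GER3 (6.48) and rab25 (6.22). Next in size came Emp1 (5.93), RAB21 (5.58), SSII-3 (5.15), HSP26.7 (5.10), LEA19 (5.06), SUS3 (4.97), TIP3-2 (4.85), HSP24.1 (4.73), HSP16.9A (4.70), PDIL1-4 (4.53), HSP16.9B (4.24) and SWEET15 (3.56). Smaller values were found for MADS27 (3.39), CCA1 (3.36), PMEI8 (3.32), HSFB2B (3.23), HSFB2A (3.22), HSFB2C (2.94), JAZ2 (2.92), EAT1 (2.85), SWEET2B (2.77), MADS22 (2.72), GH3-8 (2.66) and Sbe1 (2.62). The lowest positive values were HSFA2A (2.41), CLPB1 (2.22), PIP2-5 (2.15, its call lost under 13 settings), CLPB-M (1.98), HOX24 (1.97), Hox22 (1.97), PDIL2-3 (1.89), SODCC.2 (1.37) and DJC27 (1.24).

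The most negative values among genes that arose at optimal temperature were PCL1 (−5.28), CM-LOX1 (−5.11), CIPK10 (−4.71), TIP4-1 (−4.57), GLT2 (−4.55), DTS2 (−4.26), MST3 (−4.20), HAK17 (−4.11), EXPB9 (−3.81), SWEET5 (−3.61), JAZ5 (−3.52) and EXPA32 (−3.40). These were followed by EXPB17 (−3.31), CM-LOX2 (−3.30), HOX1 (−3.14), KIN14E (−3.09), GI (−3.07), HSFC1B (−2.90), WRKY62 (−2.62), WRKY24 (−2.54), KIN14R (−2.48), KIN7J (−2.38), ZIP4 (−2.37) and CYCB2-2 (−2.17). Values closer to 0 were found for KIN12C (−2.09), MADS4 (−2.07), PDIL1-2 (−2.04), PRR1 (−1.99), GER7 (−1.95), WRKY76 (−1.93), HOX4 (−1.93), ARF7 (−1.91), ARF12 (−1.82), HSFA4D (−1.65), CYCA2-1 (−1.48) and PDIL2-1 (−1.45). Closest to 0 were APX8 (−1.25), PSAH (−1.21), CYCB1-1 (−1.07) and HSFA3 (−1.01).

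At high temperature the named genes were BC1L9 (4.10), HMA5 (2.39), AARE2 (1.75), RFC4 (1.73), HO2 (1.61) and RSS1 (1.08) on the positive side and MADS26 (−2.74), CSLE1 (−2.39), OrysaZxb (−2.18), RTEL1 (−1.61), JAZ11 (−1.59), JAZ12 (−1.32), OsTrx18 (−1.20) and XBOS36 (−1.11) on the negative side. Lines differed at both temperatures for GLUB-5 (9.63), AMT3-2 (−4.02), CH6 (−2.43) and JAZ8 (−1.33). Called at neither temperature by itself were IAA31 (−1.95), GER6 (−1.81), RPL3A (1.20) and CYCB2-1 (−1.16).

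Signals outside the rice genes also stood apart. The 18S rRNA control averaged 22254 in the 082 optimal arrays, above the other 3 groups. The Dap control had mean 3′/5′ ratios of 12.9 in the 252 high and 12.1 in the 082 high arrays, above both optimal groups. With 3 arrays per group no search for single outlying arrays by Dixon's ratio was made.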

How the results depend on the processing

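The number of called probe sets (7828) stayed between 6730 and 8849 when any 1 array was left out, and was 8088 with quantile normalization, 7792 with 75th percentile centring, 8280 with spike scaling, 7230 and 7267 with 1 and 64 added to the signals, 7463 with no filter on low signals, 7664 with no intensity trend, 9820 with array weights and 10309 with no fold minimum. Calls fell in number where fewer features were tested or a higher fold was asked. With a filter at the 75th percentile there were 5069 calls (2424 positive, 2645 negative), 4094 at optimal, 113 at high and 778 at neither temperature, with 1131 moved in 252 alone and 2221 in 082 alone. With an absolute log2 value of at least 2 there were 3217 (1636 and 1581), sorted as 2347 at optimal, 118 at high, 1 at both in opposite directions, 15 at both in 1 direction and 736 at neither. The heat arms were then 818 for 252 alone, 1396 for 082 alone, 151 in 1 direction and 17 in opposite directions, and 74 list genes were called. With 1 probe set per gene there were 4216 (1616 and 2600), sorted as 3404, 92, 22, 21 and 677, with arms of 1190, 1632, 564, 195 and 635 for neither. Averaging the probe sets of each gene, there were 4044 (1647 and 2397), sorted as 3283, 83, 25, 22 and 631, with arms of 1140, 1583, 537, 169 and 615. Array weights gave 337 at high temperature, 94 at both in opposite directions and 109 at both in 1 direction. With 64 added to the signals 24 differed at both in opposite directions and heat moved 209 in opposite directions. With no fold minimum in any contrast these were 86 and 1244, with 574 at neither temperature, 2018 moved in 1 direction and 182 in neither line. With no fold minimum in the sort alone, 85 differed at both in opposite directions and 381 at neither. The sort by the larger line difference gave 652 at high temperature. The cause of these shifts was not tested. Leaving out 1 array gave 5450 to 7223 at optimal, 150 to 238 at high temperature, 52 to 76 at both in 1 direction, 961 to 1302 at neither, and 23 to 62 at both in opposite directions, the lowest of these without replicate 2 of 082 high. It gave 125 to 164 called list genes. Replicate numbers did not pair the samples: of 18 same-numbered pairs of arrays 2 had a correlation of deviations over 0.1 (range −0.20 to 0.13). With replicate number as a block there were 7680 calls, 6185 at optimal and 188 at high temperature. The scaling moved the median interaction of all probe sets from −0.08 to −0.36 with spikes, −0.07 with quantile normalization and 0.03 with 75th percentile centring. Of the 107 named genes that were called, 85 kept the call under every alternative in which they were tested, other than the higher fold minimum, 22 lost it under at least 1, and 0 turned direction. The filter at the 75th percentile tested only 85 of the 107. With 3 arrays per group, 32% of simulated interactions of 1.5 and 78% of 3 passed, and 7 of 33410 probe sets simulated without one also passed, so a missed call is weak evidence of equal response. Signals near background limit the size of the largest interactions, as the values with 1 and 64 added show.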
